A study of Mus musculus with 4 samples.

Results

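Dividing T cells were taken from single-cell RNA libraries of the tibial fracture callus of aged mice, as the barcodes that carried both T cell receptor complex RNA and RNA of proliferation genes. A barcode was a member if it had at least 200 genes and under 10% mitochondrial UMIs, at least 2 UMIs of Cd3e, Cd3d and Cd3g together, at least 3 UMIs of Mki67 and Top2a together, and no UMI of Csf1r or Cd79a (a UMI is 1 counted RNA molecule). The rule found 267 of 35274 barcodes, of which 33698 passed the quality limits. All mice were male C57BL/6J of 20 months with a tibial fracture and were sampled 7 days after treatment. The treated group received a microgel containing adenosine (2 libraries, called adenosine 1 and adenosine 2), and the other group received a control microgel without it (control 1 and control 2). Calluses were minced with DNase, red cells were lysed and viable cells were sorted by propidium iodide before droplet capture. The titles name the callus, while the source and tissue entries name bone marrow. The labels do not say whether each library is a separate animal, so a p-value here measures only the spread between libraries.

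T cells recognise antigen through a receptor made of variable chains and the invariant CD3 proteins, and each clone keeps the variable segments it rearranged in the thymus. After activation a T cell grows, copies its DNA in S phase and segregates it in G2 and mitosis, under the control of E2F factors early and of mitotic kinases and their activators late. T cells in a healing fracture are known to include cytotoxic CD8 cells, helper and regulatory CD4 cells and gamma-delta cells, and extracellular adenosine is known to act on T cells mainly through the receptor encoded by Adora2a, which raises cAMP.

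Nearly all dividing T cells came from a single library. The rule found 8 members in adenosine 1 and 252 in adenosine 2, against 6 in control 1 and 1 in control 2. They made up 0.0903% of the cells passing quality in adenosine 1 (95% exact binomial interval 0.0390 to 0.178%, covering counting error only, as do all intervals below) and 2.87% in adenosine 2 (2.53 to 3.25%), against 0.0636% in control 1 (0.0234 to 0.138%) and 0.0151% in control 2 (0.000381 to 0.0838%). Adenosine 2 stood far above the other 3 libraries, and the interval of adenosine 1 overlapped those of both controls. T cells as a whole, counted by the CD3 part of the rule, were also unequal, at 2.54% and 14.3% of cells in adenosine 1 and 2, against 1.93% and 0.768% in control 1 and 2.

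**Figure D1:**
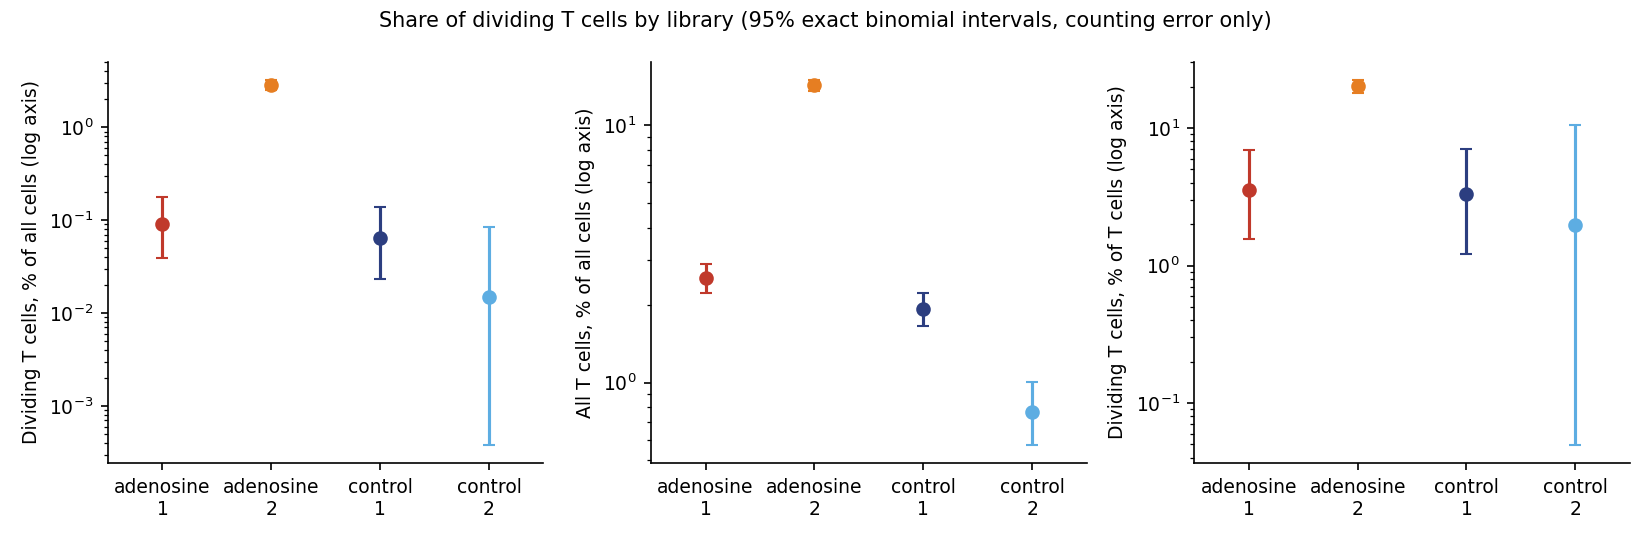
Dividing T cells as a percent of all cells passing quality (left), all T cells as a percent of the same cells (middle) and dividing T cells as a percent of T cells (right) in each library, on log axes; points are libraries and bars are exact 95% binomial intervals. The 2.87%, 14.3% and 20.1% of adenosine 2 stand above the other 3 libraries, and the intervals of adenosine 1 overlap those of the controls for dividing T cells.

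The share among T cells was also highest in adenosine 2. Among T cells, the dividing ones made up 3.56% in adenosine 1 (1.55 to 6.89%) and 20.1% in adenosine 2 (17.9 to 22.4%), against 3.30% in control 1 (1.22 to 7.04%) and 1.96% in control 2 (0.0496 to 10.4%). Among all cells the group means were 1.48 ± 1.97% with adenosine and 0.0394 ± 0.0344% with the control microgel (SD, n = 2 each), a log2 ratio of 5.24, and among T cells they were 11.8 ± 11.7% and 2.63 ± 0.945% (SD, n = 2 each), a log2 ratio of 2.17. Both differences had an exact two-sided permutation p of 0.3333, the smallest that 2 libraries against 2 allow. Without adenosine 2 the log2 ratios were 1.20 and 0.44, so the size of each difference rests on that library. With T cells of 3 or more neutrophil precursor UMIs left out they were 3.53 and 1.15 (exact permutation p 0.667 and 1). That limit kept 1 and 25 members in adenosine 1 and 2, against 1 and 1 in control 1 and 2. Proliferating cells without any CD3 UMI did not follow the pattern of dividing T cells, at 14.3% and 9.75% of cells in adenosine 1 and 2, against 11.3% and 1.23% in control 1 and 2. Members were also taken as a share of members and proliferating cells without CD3 together. They made up 0.627% of these in adenosine 1 and 22.8% in adenosine 2, against 0.562% in control 1 and 1.20% in control 2. Proliferating cells with a CD3 UMI that were not members are not counted there.

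The limits of the rule cut through a continuous range of counts. Of the 267 members, 36 had exactly 3 UMIs of Mki67 and Top2a, and 79 T cells with 2 such UMIs lay just outside. At the CD3 limit, 28 members had exactly 2 CD3 UMIs, and 139 proliferating cells with a single CD3 UMI lay outside. A further 82 barcodes met both counts and were left out for a Csf1r or Cd79a UMI, which mark monocyte-macrophages and B cells. The 4 libraries held 32277757 to 68117846 UMIs over 6753 to 9949 barcodes, and pairs of libraries shared 13 to 28 barcodes by sequence, of which 0 were dividing T cells. Doublet scoring marked 3 of 8 members in adenosine 1 and 37 of 252 in adenosine 2, against 2 of 6 in control 1 and 0 of 1 in control 2. Over all barcodes it marked 707 of 9402 and 673 of 9170 in adenosine 1 and 2, against 792 of 9949 and 365 of 6753 in control 1 and 2. Among non-dividing T cells of adenosine 2 it marked 45 of 725, a smaller share than among the members.

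The T cell label held for most members but not for all of them. RNA of 7 neutrophil precursor granule genes (Elane, Mpo, Prtn3, Ctsg, Camp, Ngp and Ltf) fell into separate ranges, with no member between 30.9 and 99.9 UMIs per 10000. Above a limit of 50 per 10000, set after this gap was seen, lay 1 of 8 members in adenosine 1 and 29 of 252 in adenosine 2, against 2 of 6 in control 1 and 0 of 1 in control 2. The 29 precursor-rich cells of adenosine 2 had a median of 747 precursor UMIs per 10000 and a median of 2 CD3 UMIs, and 18 of the 29 had no UMI of the receptor constant genes Trac, Trbc1 or Trbc2. The other 223 cells of that library had a median of 3.30 precursor UMIs per 10000, 37 CD3 UMIs and 51 receptor constant UMIs, and 3 of the 223 had no receptor constant UMI. Of the 28 members at the CD3 limit of 2 UMIs, 18 were precursor-rich. Doublet scoring marked 10 of the 29 precursor-rich cells and 27 of the other 223 cells of adenosine 2. Values below are given for all members, and for members without the precursor-rich cells where the difference matters. Where dividing and non-dividing T cells are compared, the limit was applied to both, and left out 48 of 725 non-dividing T cells of adenosine 2. Whether the precursor-rich cells are T cells was not tested.

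**Figure D2:**
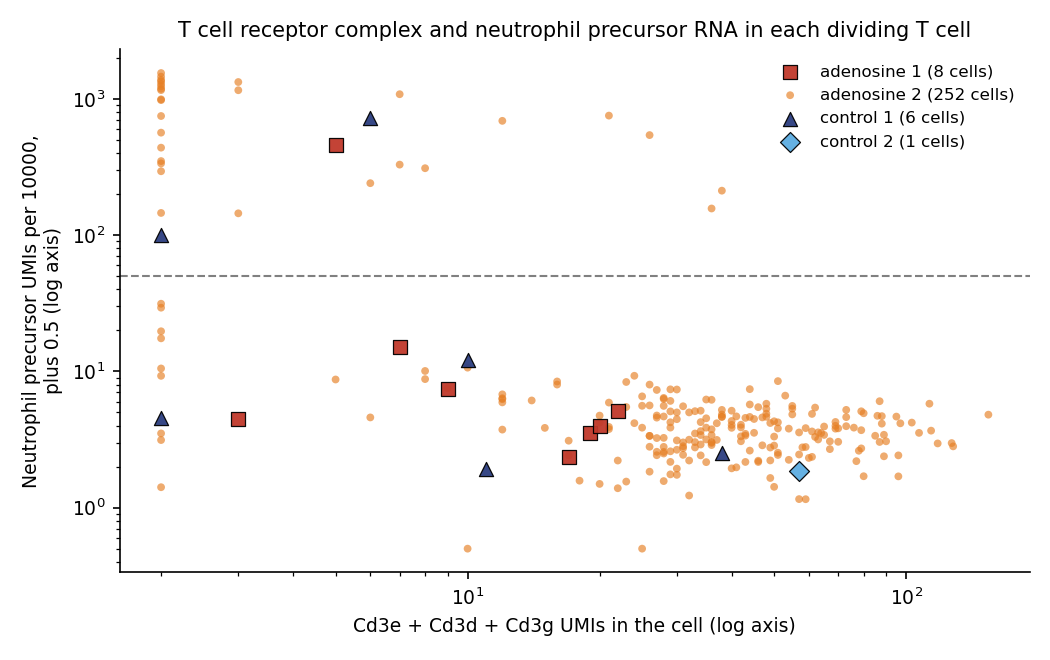
Each dividing T cell by its CD3 UMIs and its neutrophil precursor UMIs per 10000 plus 0.5, by library (log axes); the dashed line marks 50 per 10000. Of the 32 cells above the line 29 are from adenosine 2, and most lie at the limit of 2 CD3 UMIs, apart from the 235 cells below it.

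Defining genes of other lineages appeared in single cells. In adenosine 2, 2 members held at least 10 erythroid UMIs (the highest had 537), and 3 held at least 10 UMIs of the progenitor genes Kit, Cd34, Gata2, Hlf, Meis1 and Mecom (the highest had 61). In 1 cell lay 80.9% of the 188 UMIs of Hbb-bs, a beta-globin gene. A control 1 member of 26926 UMIs carried 112 progenitor UMIs, 2 CD3 UMIs and no receptor constant UMI, and no other control 1 member carried a progenitor UMI. Natural killer receptors were detected as well. Ncr1, which encodes an activating natural killer receptor, had 2 and 11 UMIs in the members of adenosine 1 and 2, against 22 and 0 UMIs in control 1 and 2.

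The 15 members outside adenosine 2 were a mixture. In adenosine 1, the deepest member had 39564 UMIs and carried 14 UMIs of Foxp3, the factor that defines regulatory T cells. The same cell had 37 UMIs of Il2ra, the high-affinity interleukin-2 receptor chain, 75 of Ctla4, an inhibitory receptor, and 5 of Cd4. It held all Foxp3, Il2ra and Ctla4 UMIs of the 8 cells. In control 1, a member of 13943 UMIs held 20 of the 22 Ncr1 UMIs together with 11 CD3 UMIs, 2 Trac UMIs and 5 Trbc2 UMIs. The single member of control 2 had 57 CD3 UMIs, 14 Cd8a UMIs and 72 UMIs of Gzmb, a granule protease of killer cells. Gzmb did not exceed 6 UMIs in any member of adenosine 1 or 4 UMIs in any member of control 1.

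Most members of adenosine 2 carried CD8 RNA. UMIs of Cd8a or Cd8b1, the coreceptor chains of cytotoxic T cells, without Cd4 were found in 4 of 8 members in adenosine 1 and 218 of 252 in adenosine 2 (86.5%, 81.7 to 90.5%), against 2 of 6 in control 1 and 1 of 1 in control 2. Cd4 without Cd8 was found in 1 of 8 and 4 of 252 members with adenosine, and in 0 of 6 and 0 of 1 members with the control microgel. Cd8b1 had 722 CPM (UMIs per 1000000 UMIs of the summed cells) in the members of adenosine 2, and Cd4 had 5.24 CPM, of which 42.3% of UMIs lay in 1 cell. Foxp3 had 0 UMIs in the 252 cells, against a limit of 3 counts in 4957512 UMIs. The gamma-delta constant gene Trdc had 1 UMI.

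In adenosine 2, the CD8 share of dividing cells was close to that of non-dividing T cells. Among T cells with no Mki67 or Top2a UMI, 35.8% in adenosine 1, 82.8% in adenosine 2, 37.7% in control 1 and 31.1% in control 2 carried Cd8 without Cd4. Dividing cells were deeper, with a median of 15228, 17390.5, 16987.5 and 14698 UMIs in adenosine 1, adenosine 2, control 1 and control 2, against 4329, 7655, 5951.5 and 4902 UMIs in non-dividing T cells. When each cell was thinned to 2000 UMIs, the expected share in adenosine 2 was 72.4% in dividing and 73.1% in non-dividing T cells, a difference of -0.65 percentage points. Without the precursor-rich cells the thinned shares were 79.9% and 75.6%, a difference of 4.22 points. Proliferating cells without CD3 of adenosine 2 had Cd8 without Cd4 in 9.82% of cells at a median of 14331 UMIs, and in 1.33% after thinning. Before thinning the same class had 0.158% in adenosine 1, against 0.566% in control 1 and 0% in control 2. Whether this class holds T cells whose CD3 RNA was missed was not tested. The thinned shares in dividing and non-dividing T cells were 28.2% and 26.2% in adenosine 1 and 11.4% and 25.8% in control 1. Over the 3 libraries with at least 5 dividing T cells the mean difference was -4.38 points, with an exact two-sided permutation p of 0.75 over libraries, where the smallest possible is 0.25.

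Receptor segments of adenosine 2 were dominated by Trav16. This segment made up 185 of 206 alpha variable UMIs in the members (89.8%, 84.8 to 93.6%), against 229 of 312 in the non-dividing T cells of the same library (73.4%, 68.1 to 78.2%). T cells with 1 or 2 UMIs of Mki67 and Top2a lay between the groups in the rule and had 105 of 139 (75.5%). In non-dividing T cells elsewhere, Trav16 had 1 of 27 alpha variable UMIs in adenosine 1, against 4 of 44 in control 1 and 0 of 3 in control 2. Trav16 thus led in all 3 classes of T cells of adenosine 2, and its share was highest in the dividing ones. UMIs of the same cell are not independent, so the intervals are narrower than cells would give. Without the precursor-rich cells it was 177 of 198 in dividing cells (89.4%).

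The segment is shown with its closest relatives because the counts depend on telling them apart. The main coding exon of Trav16 (exon 2, 301 bases, chr14:53743405-53743705, plus strand, GRCm38) differs from those of Trav16n (chr14:53351321-53351621) at 4 positions and Trav16d-dv11 (chr14:53047521-53047821) at 5, with identities of 98.7% and 98.3%. Capitals mark the 6 positions at which any of the 3 exons differ, and the first 300 bases of each exon are shown, from GENCODE M21:
Trav16: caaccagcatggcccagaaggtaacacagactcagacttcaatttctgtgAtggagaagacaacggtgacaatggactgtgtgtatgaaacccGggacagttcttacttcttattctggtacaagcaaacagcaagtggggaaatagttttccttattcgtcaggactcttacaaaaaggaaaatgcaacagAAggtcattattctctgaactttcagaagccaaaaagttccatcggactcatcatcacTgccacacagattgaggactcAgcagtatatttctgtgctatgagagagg
Trav16n: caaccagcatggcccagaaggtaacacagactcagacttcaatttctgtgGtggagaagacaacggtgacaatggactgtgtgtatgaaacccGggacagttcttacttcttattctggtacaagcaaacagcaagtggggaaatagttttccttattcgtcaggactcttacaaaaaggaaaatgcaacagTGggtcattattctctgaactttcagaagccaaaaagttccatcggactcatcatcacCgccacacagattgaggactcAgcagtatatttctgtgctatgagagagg
Trav16d-dv11: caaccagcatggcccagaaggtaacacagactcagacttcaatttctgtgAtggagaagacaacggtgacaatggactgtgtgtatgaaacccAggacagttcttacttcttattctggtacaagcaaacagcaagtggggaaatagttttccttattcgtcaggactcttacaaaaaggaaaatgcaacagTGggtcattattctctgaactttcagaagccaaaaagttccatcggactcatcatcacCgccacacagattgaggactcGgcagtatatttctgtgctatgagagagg
The members of adenosine 2 had 1 UMI each of Trav16n and Trav16d-dv11. Non-dividing T cells of the controls had more Trav16n than Trav16, with 6 of 44 alpha variable UMIs in control 1 and 3 of 3 in control 2. Reads that do not cover a differing position cannot separate these genes, so the count of Trav16 against its relatives is uncertain. If such reads were not counted, the sum of the 3 against all other segments also rests on those positions, which was not tested.

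Beta segments were more varied. Trbv29 made up 43 of 105 beta variable UMIs in the members of adenosine 2 (41.0%, 31.5 to 51.0%), against 71 of 114 in non-dividing T cells (62.3%, 52.7 to 71.2%). In non-dividing T cells elsewhere it had 0 of 10 beta variable UMIs in adenosine 1, against 1 of 15 in control 1 and 2 of 3 in control 2. In the members of adenosine 2, Trbv13-2 followed with 19 UMIs (18.1%) and Trbv12-2 with 11 (10.5%). Of the 33 members with a Trbv29 UMI, 23 also had a Trav16 UMI (69.7%), against 31.5% of the other members, and both shares move with depth. Trav16 was seen in 92 of 252 members (36.5%) and in 166 of 725 non-dividing T cells (22.9%) at a lower depth. A variable segment of either chain was seen in 2 of 8 and 140 of 252 members with adenosine, against 1 of 6 and 0 of 1 with the control microgel. Most members outside adenosine 2 thus had no segment read. Their median depth was 15228 UMIs in adenosine 1, 16987.5 in control 1 and 14698 in control 2, against 17390.5 in adenosine 2. The counts come from 3' gene expression libraries, so they do not show which cells share a clone. In adenosine 1 the 2 beta UMIs were of Trbv4 and Trbv12-2, and in control 1 the 1 alpha UMI was of Trav13-2.

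**Figure D3:**
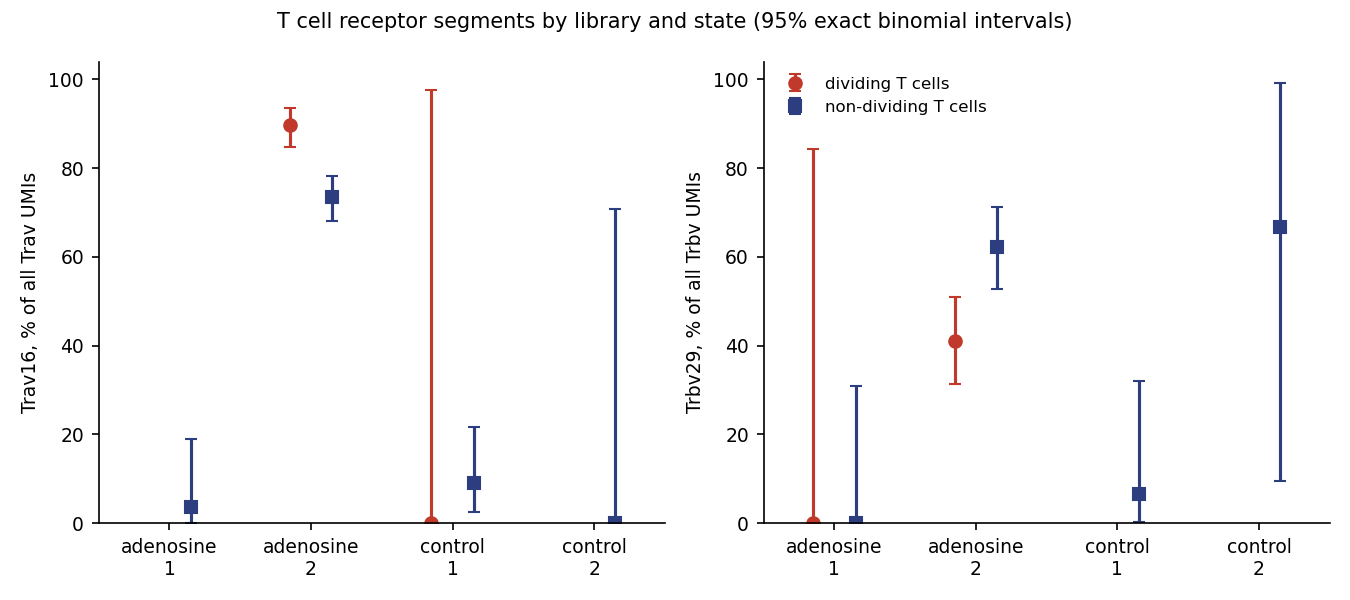
Trav16 as a percent of alpha variable UMIs (left) and Trbv29 as a percent of beta variable UMIs (right), in dividing (circles) and non-dividing (squares) T cells of each library; bars are exact 95% binomial intervals, and classes without a variable UMI have no point. Trav16 takes 89.8% of alpha UMIs in dividing and 73.4% in non-dividing T cells of adenosine 2, and Trbv29 takes 41.0% and 62.3% of beta UMIs.

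Members of adenosine 2 with a Trav16 UMI were compared with those without, as a description, since the segment is missed in shallow cells (median 20636.5 and 15490 UMIs). Of the 185 Trav16 UMIs, 177 lay outside the 29 precursor-rich cells, so most of those cells fell in the class without Trav16. The comparison was not repeated without them. Gzma, a granule protease, had 513 CPM in the 92 cells with Trav16 and 129 CPM in the 160 without. Trbc1, the first of the beta constant genes, had 249 CPM in cells with Trav16 and 528 CPM in cells without, and Mki67 had 483 and 453 CPM. Ccl5, a chemokine of memory and effector CD8 cells, was at 7336 CPM with Trav16 and 5772 CPM without. Trbc2 took 76.2% of beta constant UMIs in dividing and 81.9% in non-dividing T cells of adenosine 2.

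For genes, the comparison of dividing with non-dividing T cells was made within adenosine 2, the only library with at least 10 members, so it has no replicate check and carries no test. The UMIs of the 252 members (4957512 in all) were summed and set against those of the 725 T cells with no Mki67 or Top2a UMI. Of 8386 genes with a mean of at least 10 CPM, 658 were at least 2-fold higher (7.85%) and 297 at least 2-fold lower (3.54%) in dividing cells, and the median log2 difference was -0.03 with a pseudocount of 1 CPM. Members had more UMIs per cell than non-dividing T cells, so a lower CPM can go with more UMIs per cell. The rule asks for Mki67 and Top2a UMIs in members and for none in the other class, which favours deeper cells among members. How far the difference in depth follows from this was not tested. The rule selected on Mki67 and Top2a, so a higher level of genes that move with them follows in part from the choice of members. The values of adenosine 1, control 1 and control 2 stand beside those of adenosine 2 in what follows. Of the 94584 UMIs of the control 1 members, 26926 lay in the progenitor-rich member and 22847 and 3904 in the precursor-rich cells. Control 2 rests on 1 cell of 14698 UMIs, in which 1 UMI is 68.0 CPM.

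Genes of DNA replication were higher in dividing cells. Of 27 S phase genes, 27 were at least 2-fold higher, with a median log2 difference of 2.59. Rrm2, a subunit of ribonucleotide reductase, had 254, 218, 190 and 0 CPM in the dividing T cells of adenosine 1, adenosine 2, control 1 and control 2, against 1.94, 6.42, 1.88 and 3.73 CPM in non-dividing T cells. It was higher in dividing cells in all libraries but control 2, whose single member had no UMI of it. Pcna, the sliding clamp of DNA polymerase, had 322, 258, 338 and 0 CPM in dividing cells, against 70.7, 50.8, 73.3 and 48.5 CPM in non-dividing cells, again higher in 3 of 4 libraries. Mcm6, a helicase subunit, differed least of the list, at 170 CPM in dividing and 74.6 CPM in non-dividing cells of adenosine 2 (log2 1.18).

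Genes of G2 and mitosis differed by more. All 29 measured were at least 2-fold higher, with a median log2 difference of 4.81. Cdk1, the mitotic kinase, had 110, 205, 106 and 68.0 CPM in dividing T cells of adenosine 1, adenosine 2, control 1 and control 2, against 1.94, 5.55, 1.88 and 0 CPM in non-dividing T cells. Every library was higher in dividing cells, control 2 on 1 UMI. Birc5, a subunit of the chromosomal passenger complex, had 212, 347, 84.6 and 272 CPM, against 3.87, 10.9, 2.82 and 0 CPM. Hmgb2, a chromatin protein, was the most abundant of those named, at 2679, 3472, 2051 and 3402 CPM in dividing cells, against 362, 552, 366 and 299 CPM in non-dividing cells. Non-dividing cells of every library also held it, and every library was higher in dividing cells.

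Outside both lists, the largest differences were of replication-dependent histones and chromosome proteins. Hist1h2ap, a core histone gene, had 384, 856, 1089 and 0 CPM in dividing cells of adenosine 1, adenosine 2, control 1 and control 2, against 0.968, 10.6, 12.2 and 0 CPM in non-dividing cells (log2 6.21 in adenosine 2). Hist1h2ae and the linker histone Hist1h1b followed, each with a log2 difference of 5.93. Pclaf, a protein that binds the sliding clamp, had 466, 623, 402 and 680 CPM in dividing cells, against 3.87, 16.5, 3.76 and 3.73 CPM in non-dividing cells, with no overlap between the classes. Shcbp1 (log2 5.69), Kif4, a chromosome motor (5.63), Sgo2a, a guardian of cohesion (5.55), Parpbp (5.30) and Esco2, a cohesin acetyltransferase (5.17), were also among the 10 largest. Histone counts from poly(A)-primed libraries cover only the transcripts that were primed, and families of near-identical histone genes can share reads.

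**Figure D4:**
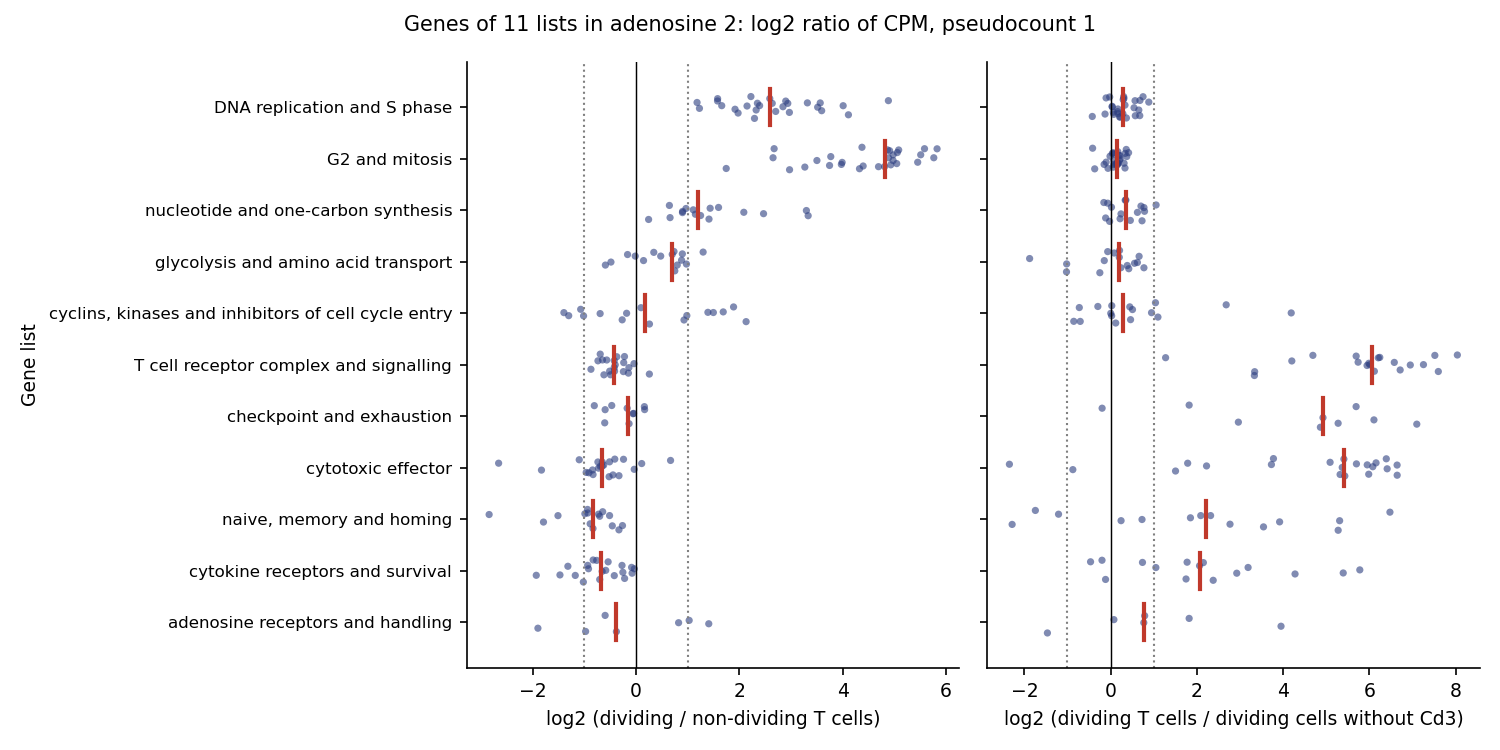
Log2 ratio of CPM (pseudocount 1) of each measured gene by gene list in adenosine 2, for dividing over non-dividing T cells (left) and dividing T cells over proliferating cells without CD3 (right). Points are genes, red bars are list medians and dotted lines mark 2-fold. On the left the medians of S phase (2.59) and G2 and mitosis genes (4.81) lie beyond 2-fold, and on the right those 2 medians lie at 0.29 and 0.16.

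Promoters of the 2 cell cycle lists were read from RefSeq (GRCm38.p6, 250 bases before the start), because E2F sites are known in S phase genes and CCAAT boxes with a CHR element in mitotic genes. An E2F match (TTTCCCGC, TTTGGCGC, TTTCGCGC or TTTGCCGC on either strand) was present in 7 of 23 S phase promoters (30.4%) and 1 of 25 G2 and mitosis promoters (4.0%), against 1.91% of 27025 promoters. CCAAT on either strand was in 14 of 23 S phase promoters (60.9%) and 20 of 25 G2 and mitosis promoters (80.0%), against 34.5% of all. A CHR match (TTTGAA or TTCGAA, either strand) together with CCAAT was in 3 of 23 (13.0%) and 9 of 25 (36.0%), against 6.21% of all. A match is a run of letters and no evidence of binding. An example of each kind is shown, with matches in capitals. Pola1, the catalytic subunit of DNA polymerase alpha (chrX:93632156-93632405, minus strand), had 349, 241, 497 and 0 CPM in dividing cells of adenosine 1, adenosine 2, control 1 and control 2, against 81.3, 53.6, 63.9 and 29.9 CPM in non-dividing cells, and its capitals mark the E2F match 138 bases before the start. In Hmgb2 (chr8:57511593-57511842, plus strand) the capitals mark 4 CCAAT and 2 CHR matches:
Pola1: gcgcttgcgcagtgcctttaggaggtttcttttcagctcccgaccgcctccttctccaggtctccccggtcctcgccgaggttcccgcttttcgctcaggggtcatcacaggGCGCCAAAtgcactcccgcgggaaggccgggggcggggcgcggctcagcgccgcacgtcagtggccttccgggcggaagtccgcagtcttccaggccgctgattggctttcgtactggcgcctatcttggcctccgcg
Hmgb2: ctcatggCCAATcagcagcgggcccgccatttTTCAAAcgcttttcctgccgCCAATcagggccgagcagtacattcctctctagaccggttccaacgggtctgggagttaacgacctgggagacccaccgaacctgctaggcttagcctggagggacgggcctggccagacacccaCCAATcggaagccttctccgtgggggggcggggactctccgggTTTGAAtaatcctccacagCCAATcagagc

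Most nucleotide synthesis genes were higher in dividing cells as well, and few glycolysis genes were. Of 16 nucleotide and one-carbon synthesis genes, 10 were at least 2-fold higher and 0 lower (median log2 1.20). Tk1, the salvage thymidine kinase, had 48.0, 98.0, 106 and 0 CPM in dividing cells, against 6.77, 8.85, 4.70 and 3.73 CPM in non-dividing cells, higher in the 3 libraries with more than 1 member. Of 15 glycolysis and amino acid transport genes only Tpi1, triosephosphate isomerase, was past 2-fold, with 208 CPM in dividing and 83.9 CPM in non-dividing cells of adenosine 2 (log2 1.30). That 1 of 15 is no larger a share than the 7.85% of all genes, and the median of the list was 0.70. Ldha, lactate dehydrogenase A, had 267, 465, 285 and 476 CPM in dividing cells of adenosine 1, adenosine 2, control 1 and control 2, against 126, 236, 160 and 246 CPM in non-dividing cells, higher in every library.

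Regulators of cell cycle entry were split. Of 16 measured, 5 were at least 2-fold higher and 4 at least 2-fold lower. Among inhibitors, Cdkn1a (p21) had 37.5 CPM in dividing and 7.80 CPM in non-dividing cells of adenosine 2, with 0 and 1 UMI in the members of adenosine 1 and control 1. Cdkn2c (p18) had 89.1, 105, 84.6 and 0 CPM in dividing cells of adenosine 1, adenosine 2, control 1 and control 2, against 9.68, 27.7, 16.9 and 33.6 CPM in non-dividing cells. Cdkn2a, the p16 and p19 locus, had 30.3 CPM (25.6 to 35.5) in dividing and 10.9 CPM (8.40 to 14) in non-dividing T cells of adenosine 2, and 0.715 CPM in its proliferating cells without CD3. D-type cyclins, which start the cycle, were lower as a share of RNA. Ccnd3 had 336, 159, 370 and 476 CPM in dividing cells, against 1021, 419, 1168 and 627 CPM in non-dividing cells, lower in all 4 libraries, but per cell of adenosine 2 it was nearly equal (3.12 and 3.33 UMIs). Btg1, an antiproliferative gene, had a log2 difference of -1.30 and the same 5.06 UMIs per cell in both classes.

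T cell receptor genes differed little as a share of RNA. None of 20 measured genes of the receptor complex and its signalling was past 2-fold in either direction (median log2 -0.42), and in adenosine 2 they had more UMIs per cell on average. Cd3e was a gene of the rule and had 11.2 UMIs per dividing and 5.82 UMIs per non-dividing cell in adenosine 2. Trac, the alpha constant gene, had 274, 775, 106 and 1565 CPM in dividing cells of adenosine 1, adenosine 2, control 1 and control 2, against 248, 854, 259 and 291 CPM in non-dividing cells. Dividing cells were lower in adenosine 2 and control 1 and higher in adenosine 1 and control 2. The 10 Trac UMIs of control 1 lay in 3 of its 6 members, and its progenitor-rich and precursor-rich members had none.

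Of 22 cytotoxic effector genes, none was 2-fold higher and 3 were 2-fold lower (Ccl5, Xcl1 and Fasl; median log2 -0.66). Ccl5 had 1302, 6441, 476 and 953 CPM in dividing cells of adenosine 1, adenosine 2, control 1 and control 2, against 3092, 22927, 3515 and 2541 CPM in non-dividing cells. It was lower in dividing cells of every library, and also per cell in adenosine 2, at 127 and 182 UMIs. Gzmk, a granzyme of memory CD8 cells, had 48.0, 621, 31.7 and 0 CPM in dividing cells, against 75.5, 637, 72.4 and 14.9 CPM in non-dividing cells, and stood near 0 in log2 terms in adenosine 2 (-0.04). Prf1, perforin, had 278 CPM in dividing and 397 CPM in non-dividing cells of adenosine 2 (log2 -0.51), and Gzmb had 95.6 and 59.8 CPM (log2 0.67).

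None of 10 checkpoint and exhaustion genes was past 2-fold (median log2 -0.15). Tox, a factor of exhausted T cells, had 1131, 1117, 328 and 0 CPM in dividing cells of adenosine 1, adenosine 2, control 1 and control 2, against 1720, 1155, 1166 and 489 CPM in non-dividing cells. The classes were alike in adenosine 2, and dividing cells were lower in the other libraries. Pdcd1, the PD-1 receptor, had 97.4 CPM in dividing and 87.1 CPM in non-dividing cells of adenosine 2 (log2 0.16), and Havcr2, the TIM-3 receptor, had 114 and 128 CPM (log2 -0.17).

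A minority of genes of quiescent and long-lived T cells was lower as a share of RNA. Of 15 naive, memory and homing genes, 3 were at least 2-fold lower (Tcf7, Il7r and Bach2) and 0 higher, with a median log2 of -0.83. Tcf7, a factor of naive and stem-like T cells, had 130, 7.06, 63.4 and 340 CPM in dividing cells of adenosine 1, adenosine 2, control 1 and control 2, against 383, 56.9, 339 and 261 CPM in non-dividing cells. It was lower in dividing cells except in control 2, and 45.7% of its 35 UMIs in the members of adenosine 2 lay in 1 cell. Il7r, the interleukin-7 receptor, had 123, 111, 95.2 and 612 CPM in dividing cells, against 574, 386, 560 and 784 CPM in non-dividing cells. It was lower in all 4 libraries, in control 2 on 9 UMIs. Bach2, a repressor of effector genes, had a log2 difference of -1.51. Others of the list were lower in CPM by less than 2-fold and higher per cell, such as Lef1, a partner factor of Tcf7, with 5.04 UMIs per dividing and 2.57 UMIs per non-dividing cell of adenosine 2.

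Of 20 cytokine receptor and survival genes, 5 were at least 2-fold lower and 0 higher. Bcl2, which blocks apoptosis, had 507, 271, 1047 and 340 CPM in dividing cells of adenosine 1, adenosine 2, control 1 and control 2, against 1841, 1037, 1995 and 545 CPM in non-dividing cells. It was lower in dividing cells of every library, in control 2 on 5 UMIs, and per cell in adenosine 2 it had 5.33 and 8.25 UMIs. Bcl2l11, its antagonist BIM (log2 -1.47), and the cytokine signalling inhibitors Cish (-1.32), Socs1 (-1.18) and Socs2 (-1.02) were the others. The remaining large differences downward included the kinase gene Pim2 (-2.19), Scml4 (-2.15), the histone demethylase gene Kdm5b (-2.0), Tcp11l2 (-1.99), Myo3b (-1.85) and Fhit (-1.84). The neutrophil collagenase Mmp8 and gelatinase Mmp9 were also among the 10 largest, at -2.62 and -2.24, and at -1.32 and -1.15 without the precursor-rich cells of both classes. Without them Mmp8 went from 136 to 37.2 CPM in non-dividing cells and from 21.4 to 14.3 CPM in dividing cells.

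Of 9 natural killer genes, 4 were at least 2-fold lower in dividing cells of adenosine 2 and 0 higher (median log2 -0.83). Klrb1c, which encodes the NK1.1 receptor, had 103, 4.84, 84.6 and 0 CPM in dividing cells of adenosine 1, adenosine 2, control 1 and control 2, against 91.0, 45.6, 167 and 29.9 CPM in non-dividing cells. In adenosine 2 it was seen in 3.18% of dividing and 10.2% of non-dividing cells. Ncr1 was seen in 1.59% and 1.66%, and Klra4 in 1.59% and 1.79%, so few cells of either class carried those genes. Dividing cells were deeper. Klra8, the Ly49H receptor gene, had 435 CPM in dividing and 775 CPM in non-dividing T cells of adenosine 2, and 95.9 and 35.8 CPM in those of adenosine 1, while both control libraries had 0 UMIs in dividing cells. Members of the Klra family are similar in sequence, so their counts are uncertain. Of 10 neutrophil precursor genes, 8 were at least 2-fold higher in dividing cells of adenosine 2 (median log2 2.14), and without the precursor-rich cells 0 of 7 measured were (median 0.17). Those cells held 91.9% of Elane UMIs and 96.4% of Camp UMIs of the members. Mature neutrophil genes summed to 19591, 15034, 20669 and 1021 CPM in dividing T cells of adenosine 1, adenosine 2, control 1 and control 2, against 6473, 2043, 1533 and 1021 CPM without the precursor-rich cells, and their part in these results was not tested. Of 8 measured mature neutrophil genes 4 were at least 2-fold lower in dividing cells of adenosine 2 and 0 higher (median log2 -0.97), and without the precursor-rich cells 2 of 7 were lower (-0.93).

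The other lists of T cell subsets and of other lineages showed few differences past 2-fold in adenosine 2. None of 2 CD8 genes (median log2 -0.17), 6 regulatory T cell genes (-0.64), 2 gamma-delta genes (0.37) or 8 dissociation and stress genes (-0.23) was past it, and no gene of the CD4 list reached a mean of 10 CPM. Among other lineages, 1 of 6 monocyte-macrophage genes was at least 2-fold higher (median -0.09), and none of 2 B cell genes (-0.39), 3 dendritic cell genes (0.37), the 1 progenitor gene (0.22) or the 1 mesenchymal and endothelial gene (-0.52) was past 2-fold. All 4 erythroid genes were at least 2-fold higher (median 4.46), and 85.4% of the Hba-a1 UMIs of the members lay in 1 cell.

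Genes that sense or handle adenosine ranged widely in level. Adora2a, the main adenosine receptor of T cells, had 20.6, 31.1, 42.3 and 0 CPM in dividing T cells of adenosine 1, adenosine 2, control 1 and control 2, against 23.2, 40.8, 24.4 and 26.1 CPM in non-dividing cells. These rest on 3, 154, 4 and 0 UMIs in the dividing cells, and the groups of libraries overlapped. Adora2b had 1, 2, 0 and 0 UMIs in the members. Of 7 measured genes of the list, 2 were at least 2-fold higher and 1 lower in adenosine 2. Slc29a1, an equilibrative nucleoside transporter, had 48.0, 37.5, 31.7 and 0 CPM in dividing cells, against 11.6, 13.5, 16 and 7.46 CPM in non-dividing cells, higher in the 3 libraries with more than 1 member. Adk, which phosphorylates adenosine, had 88.4 CPM in dividing and 42.8 CPM in non-dividing cells of adenosine 2 (log2 1.03). Entpd1, the ectonucleotidase CD39, had 111 and 169 CPM (log2 -0.60), and Pnp, purine nucleoside phosphorylase, had 99.8 and 56.0 CPM (log2 0.82). Nt5e, the ectonucleotidase CD73, had 0, 6.66, 52.9 and 136 CPM in dividing cells, against 120, 27.6, 116 and 89.6 CPM in non-dividing cells, higher in control 2 alone on 2 UMIs. Of 9 cAMP response genes, 0 were higher and 1 lower past 2-fold (median -0.29).

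Interferon and MHC class I genes differed little. Of 16 interferon response genes 1 was past 2-fold, downward (median log2 -0.46), and of 12 MHC class I genes none was (median -0.23). H2-K1, a classical class I heavy chain, had 1261, 2249, 878 and 3402 CPM in dividing cells of adenosine 1, adenosine 2, control 1 and control 2, against 1851, 3089, 1978 and 1907 CPM in non-dividing cells.

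Dividing T cells were then set against proliferating cells without CD3 in adenosine 2 (855 cells with the same Mki67 and Top2a limit, in which the neutrophil precursor genes Elane and Camp had 1933 and 21564 CPM). Of 8489 genes, 868 were at least 2-fold higher (10.2%) and 927 at least 2-fold lower (10.9%) in dividing T cells, with a median log2 difference of 0.12. The cell cycle lists did not separate the classes. None of 27 S phase genes (median log2 0.29) and none of 29 G2 and mitosis genes (0.16) was past 2-fold, and Rrm2 had 218 CPM in dividing T cells and 234 CPM in the proliferating cells without CD3. All 20 receptor genes (median 6.06), 19 of 21 cytotoxic genes (5.41) and 8 of 9 checkpoint genes (4.92) were at least 2-fold higher in dividing T cells. The absence of CD3 chose the second class, so these identity genes differ by construction. Cdkn2a was 1 of 4 cell cycle entry genes higher in dividing T cells (log2 4.19), and 3 of 16 glycolysis genes were lower.

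The balance of S phase and mitotic RNA nevertheless differed by cell. In adenosine 2, 173 of 252 dividing T cells had more G2 and mitosis than S phase UMIs (68.7%, 62.5 to 74.3%), against 700 of 855 proliferating cells without CD3 (81.9%, 79.1 to 84.4%). Among non-dividing T cells of adenosine 2 it was 458 of 725 (63.2%, 59.5 to 66.7%), and the intervals of dividing and non-dividing T cells overlapped. The balance thus separated dividing from non-dividing T cells poorly. The counts in dividing T cells were 6 of 8 in adenosine 1, 3 of 6 in control 1 and 1 of 1 in control 2. The median dividing T cell of adenosine 2 held 30.3 S phase and 79.7 G2 and mitosis UMIs per 10000, against 21.3 and 90.3 in proliferating cells without CD3 and 5.32 and 7.93 in non-dividing T cells. Without the precursor-rich cells the share was 66.8%. These are balances of RNA and not phase calls.

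**Figure D5:**
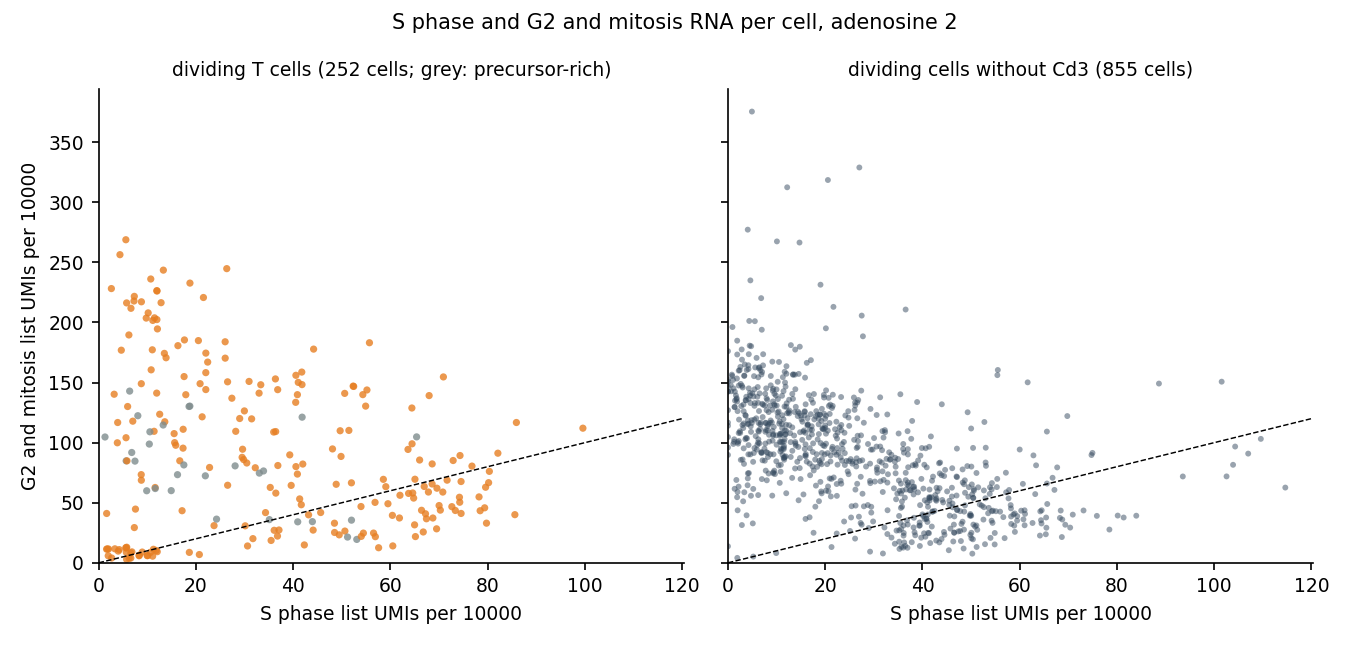
S phase and G2 and mitosis UMIs per 10000 in each of the 252 dividing T cells (left; grey, precursor-rich) and the 855 proliferating cells without CD3 (right) of adenosine 2; the dashed line marks equal values. Dividing T cells include a group at the lower left, low for both lists, that is sparse among the cells without CD3.

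A portion of the members had little cell cycle RNA beyond the genes of the rule. In adenosine 2, 25 of 252 (9.92%, 6.52 to 14.3%) were at or below the 90th percentile of non-dividing T cells for both lists (11.5 and 15.6 UMIs per 10000), against 4 of 855 proliferating cells without CD3 (0.468%, 0.128 to 1.19%). Of these 25 cells, 18 had exactly 3 UMIs of Mki67 and Top2a and 23 had at most 5. Their median depth was 10306 UMIs, against 18030 UMIs in the other members. No such cell was found among the 8, 6 and 1 members of adenosine 1, control 1 and control 2. These members lie at the edge of the rule, and whether they were dividing was not tested.

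A comparison of adenosine with control within dividing T cells could not be made at 10 cells a library, because neither control library held that many. At 5 cells it rests on adenosine 1 and 2 against control 1 alone, and control 1 is assumed to vary like the adenosine libraries. The edgeR quasi-likelihood test then found 0 genes higher and 15 lower (0.36%) among 4162 at a Benjamini-Hochberg adjusted p of 0.05, with 289 genes at an unadjusted p under 0.05, and DESeq2 found 0 and 13. In 13 of the 15 genes most control 1 UMIs lay in the single member with 112 progenitor UMIs. Prkg1, a cGMP-dependent kinase, had 1 and 11 UMIs in the members of adenosine 1 and 2, against 43 UMIs in control 1 (log2 -7.30, edgeR adjusted p 1.526e-05), of which 42 lay in that cell. Meis1, a progenitor transcription factor, had 1 and 56 UMIs in adenosine 1 and 2, against 86 UMIs in control 1, all in that cell. The exceptions were Ncr1, with none of its 22 control 1 UMIs in that cell, and Cd9, a tetraspanin, with 47.4%. With members of at least 10 progenitor UMIs left out, an alternative chosen after seeing the data, control 1 kept 5 cells and edgeR found 0 genes higher and 1 lower among 4173 (266 at an unadjusted p under 0.05). The gene was Ncr1 (log2 -6.56, edgeR adjusted p 0.0001745), and 20 of its 22 control 1 UMIs also lay in 1 cell, the natural killer receptor-bearing member described above. Without control 1 no such comparison could be fitted.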

How the data were processed

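Per the submitters' processing notes, reads were processed with bcl2fastq and Cell Ranger 7.0.0 on mm10; the annotation, and whether intronic reads were counted, is not stated there. Libraries came from a droplet 3' kit and an MGISEQ-2000, per the labels. The deposited matrices hold whole-number UMI counts per gene and barcode, which the authors did not normalize. From them, cells were chosen by the UMI limits given in the report, and counts were summed per library and class and scaled to CPM. The gene lists and the members were chosen with earlier results of these data known. Gene comparisons were planned as edgeR quasi-likelihood tests over libraries with at least 10 cells per class; only adenosine 2 met this, so they became differences within 1 library, with a pseudocount of 1 CPM, a mean of at least 10 CPM, a 2-fold limit and exact Poisson intervals. Genes named as largest were the 10 per direction with at least 50 CPM in the higher class, outside the rule genes, the S phase and G2 and mitosis lists, predicted, ribosomal, mitochondrial and receptor segment genes. Of the 10 that were higher, 1 is not reported here. List members named in the text were chosen after their values were seen. The gene lists held 364 genes in 28 lists, of which 1 was not among the 32285 genes. Thinned shares are exact expectations. Doublets were scored with Scrublet (scanpy 1.11.5) at 0.8% per 1000 barcodes and kept. The edgeR script was tested on simulated data. Versions were R 4.3.3, edgeR 4.0.16, DESeq2 1.42.0, Python 3.11.15 and scipy 1.17.1. The samples share replicate numbers 1 and 2 in both groups, and nothing in the labels says that these pair them.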

Additional observations from a re-analysis of the deposited data

How the results depend on the processing

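The log2 ratios of group means of the shares kept their direction under every alternative run, with adenosine 2 the highest library. Adenosine 1 alone did not always go the same way. With T cells of 3 or more neutrophil precursor UMIs left out, dividing cells were 0.680% of T cells in adenosine 1 and 7.23% in adenosine 2. The share was 1.30% in control 1 and 2.27% in control 2, on 1 member each, as in adenosine 1. No other gate was run without adenosine 2. Among all cells the log2 ratio of adenosine over control was 3.53 to 5.85 under the other gates, and 1.20 to 6.62 with each library left out in turn. Among T cells it was 1.15 to 2.42 under the other gates (1.42 after thinning to 2000 UMIs) and 0.44 to 2.93 with each library left out. With a replicate block the log2 ratios stayed 5.24 and 2.17 (exact permutation p 0.5 for both, the smallest that the block allows). Neither share could therefore be called with or without the block. The CD8 difference between dividing and non-dividing T cells of adenosine 2 was -4.96 to 4.22 percentage points over the alternatives, so its direction was not settled. Genes past 2-fold between dividing and non-dividing T cells numbered 955, and 1608 with T cells of 3 or more neutrophil precursor UMIs left out. That limit kept 25 of 252 members and 240 of 725 non-dividing T cells of adenosine 2, so counting error is larger there. It also gave the 3.53, 1.15 and -4.96 above. The edgeR test over libraries with at least 5 members, which has no fold limit, called 1444 of 9687 genes tested. At 5 members it called 1561 of 18497 without a filter on low counts and 1971 of 10772 with a Mki67 and Top2a limit of 5. It called 1528 of 10727 without precursor-rich cells and 1670 of 9551 without progenitor-rich cells. A Mki67 and Top2a limit of 2 gave 1036 of 9820, and removal of scored doublets gave 775 of 10384. DESeq2 called 863 of 9687. With each library left out, the counts were 787 of 7748 to 1842 of 10938, the highest without control 1. Against proliferating cells without CD3, 1795 of 8489 genes were past 2-fold, and edgeR called 2005 of 12924 at 5 members. It called 2745 of 12859 without progenitor-rich cells. With each library left out it called 742 of 12237 to 2191 of 12577, the lowest without adenosine 2. The 15 genes called between adenosine and control (0 higher, 15 lower) became 37 with library size scaling (9 higher, 28 lower), 107 without a filter on low counts (33 higher, 74 lower) and 1 without the progenitor-rich cells. In that order the genes tested numbered 4162, 4162, 16376 and 4173. Of the named genes' values under the alternatives, 655 stayed within their counting interval and 173 moved beyond it, 55 of these under the limit of 3 precursor UMIs, and 0 of those past 2-fold turned their direction. Without adenosine 2 no library held 10 members, so the differences within that library have no value there, and DESeq2, library size scaling and the filter on low counts apply only at 5 members. No paired analysis was possible for genes because only replicate 1 held at least 5 dividing T cells in both groups. The limits of 50 precursor UMIs per 10000, 5 CD3 UMIs and 10 progenitor UMIs, and their fits at 5 members, were chosen after seeing the data. The 15 members outside adenosine 2 and the 2 libraries a group limit the precision of every comparison of adenosine with control.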
